A study of Mus musculus with 12 samples.

Results

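The complement and coagulation cascades were followed through 43 genes of plasma proteins, most of which come mainly from the liver. Of these genes, 21 were of complement and 22 of clotting and fibrinolysis. Members were taken from a list of gene symbols and read through the probe sets annotated with those symbols. Where a gene had several probe sets, the one with the highest mean over the 12 arrays was used. A probe set was found for 41 of the 43 genes, 20 of complement and 21 of clotting, out of 12393 genes measured in all. C3, the central complement component, and Cpb2, a carboxypeptidase that slows fibrinolysis, had no matching probe set and were not analysed here.

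Livers were taken whole from C57BL/6 females, all 8 to 12 weeks old, and their RNA was hybridised to 12 Affymetrix arrays, 3 in each of 4 groups. The groups were mice with HDAC6 deleted (HDAC6 -/-), mice with HDAC9 deleted (HDAC9 -/-), wild types given, after weaning, a high-fat diet in which fat supplied 60% of the energy, and wild types on chow in which it supplied 25%. HDAC6 and HDAC9 are protein deacetylases. Expression is given per gene as the log2 value after robust multi-array averaging (RMA), a scale on which a difference of 1 is a 2-fold change. The labels state a diet for the wild-type groups only, so a knockout group may differ from a wild-type group in diet as well as in genotype. The labels number the replicates without saying that each is a separate mouse, so a p-value here reflects the spread among the samples, which may be technical. In whole liver, fewer cells of a type and less RNA per cell cannot be told apart.

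Complement is a chain of plasma proteins that marks microbes and damaged cells for uptake and can open pores in membranes. It is started by C1q on antibodies, by mannose-binding lectins on sugars, or by the alternative pathway, and all routes end in the assembly of C5 to C9. Clotting is a chain of proteases that turns prothrombin into thrombin and fibrinogen into fibrin, held back by plasma inhibitors and undone by plasmin. Hepatocytes make most of these proteins, while the C1q chains and properdin come largely from macrophages and other leukocytes.

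The array medians lay between 5.78 and 5.86 on the log2 scale, and pairs of arrays correlated at r = 0.987 to 0.997. The Hdac6 probe set had a mean of 6.28 in HDAC6 knockout livers and of 7.74 to 7.98 in the other groups. The Hdac9 probe set had a mean of 4.20 in HDAC9 knockout livers and of 4.30 to 4.36 in the other groups, so it gave no check of that label. Alb, albumin, the defining hepatocyte transcript, read between 14.16 and 14.25 on the 12 arrays. Of the 12 arrays, 1 chow array, 1 HDAC9 knockout array and 1 high-fat array stood apart. Chow replicate 2 had the lowest mean correlation with the other arrays, 0.9895. HDAC9 knockout replicate 2 had 0.9908 and high-fat replicate 1 had 0.9916. Chow replicate 2 was highest of the 12 arrays for 18.5% of all genes and lowest for 10.8%. It belongs to the group that the other groups are compared with. HDAC9 knockout replicate 2 carried transcripts of the exocrine pancreas, with a median of 3.72 above the 12-array mean over 11 marker genes, against at most 0.33 on any other array. That mean includes replicate 2 itself. HDAC9 knockout replicate 1 also read above chow for several of them, such as Ctrb1 (5.97, chow mean 4.57) and Cela2a (5.24, chow mean 4.01). Its Cela1 (8.41) and Clps (4.46) lay near the chow means of 8.39 and 4.39. High-fat replicate 1 had the lowest value of the 12 arrays for 18 of the 41 members (43.9%), against 14.5% of all genes.

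No member differed between groups past the threshold, an adjusted p under 0.05 over all 12393 genes (limma, Benjamini-Hochberg), in any of the 6 pairwise comparisons or in the test for any difference among the 4 groups. The count was 0 of 41 in HDAC6 knockout livers against chow, where 0.0161% of all genes passed. It was 0 of 41 in HDAC9 knockout livers against chow, where 0.0968% passed, and 0 of 41 in high-fat livers against chow, where 0.29% passed. Between the knockouts it was also 0 of 41, with 0.00807% of all genes past the threshold. The high-fat group against the HDAC6 and the HDAC9 knockout group gave 0 of 41 each, with 0.145% and 0.436% of all genes. For any difference among the 4 groups it was 0 of 41 against 0.331%. By the smallest unadjusted p in any pairwise comparison, the first members were the clotting factor F11 (0.00212), the pore subunits C8b (0.00236) and C8a (0.00674), the C1q chain C1qb (0.00777), the lectin Mbl1 (0.0104), properdin, Cfp (0.0109), and the C1q chain C1qa (0.0118), all from limma.

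At an unadjusted p under 0.05, the HDAC6 knockout group had 3 of 41 members (7.32%), all of them lower than chow, against 5.77% of all genes (3.03% lower). The HDAC9 knockout group had 7 of 41 (17.1%), 2 higher and 5 lower, against 6.08% of all genes (2.49% higher and 3.6% lower). The high-fat group had 6 of 41 (14.6%), 4 higher and 2 lower, against 8.48% (4.13% higher and 4.35% lower). Between the knockouts there were 0 of 41 against 3.8%. The high-fat group had 2 of 41 against the HDAC6 knockout group and 5 of 41 against the HDAC9 knockout group, beside 7.27% and 8.1% of all genes. For any difference among the 4 groups, 4 complement and 1 clotting members were under 0.05, beside 7.48% of all genes. Several of these members are encoded side by side or shared the same high and low arrays, so their counts are not counts of independent events.

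**Figure D1:**
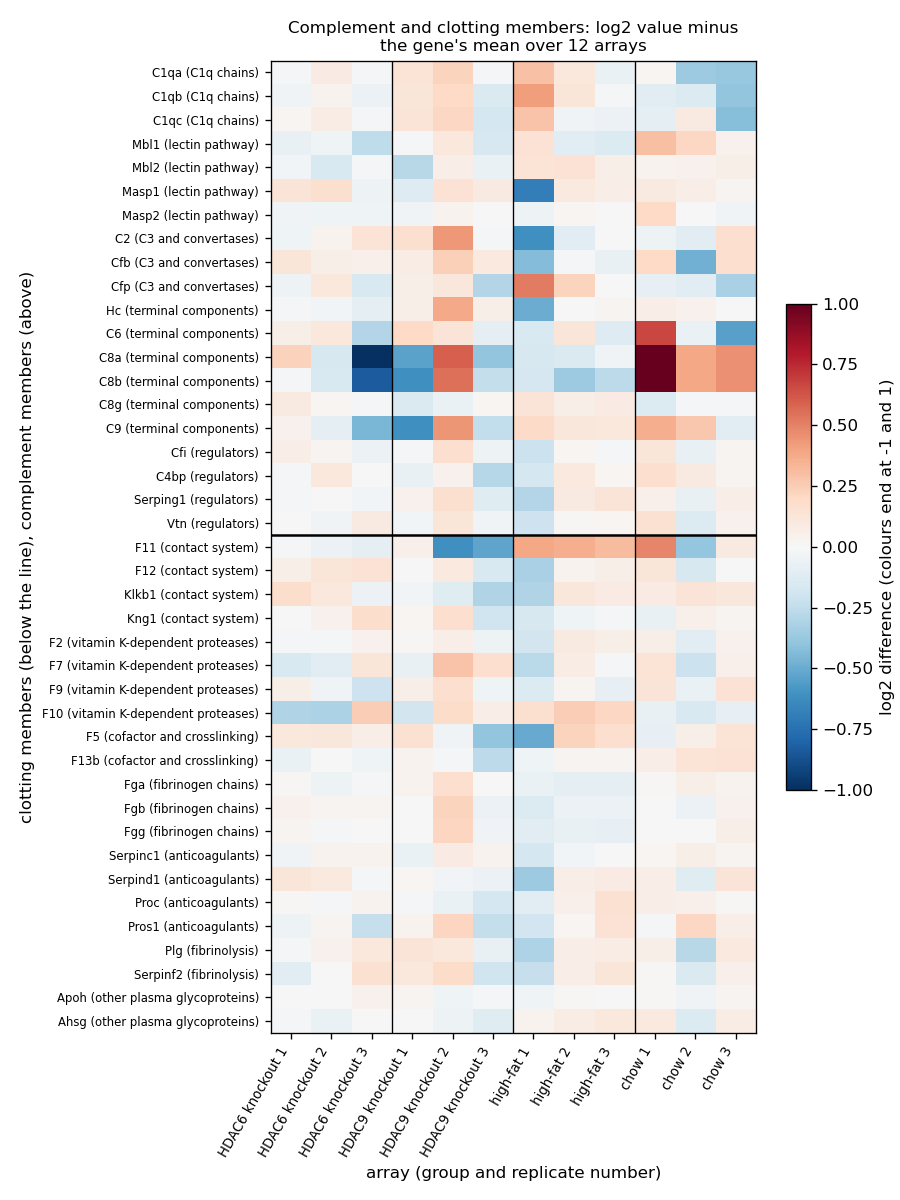
Heat map of the 41 members (rows, with their role) on the 12 arrays (columns, by group and replicate number), as the log2 value minus the mean of that gene over the 12 arrays. C8a and C8b have the widest range, 2.7 and 2.07, and high-fat replicate 1 holds the lowest value of 18 members.

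The terminal components build the membrane attack complex. C8 has an alpha and a beta chain, encoded by the neighbouring genes C8a and C8b, and a gamma chain encoded by C8g elsewhere in the genome. C8a read 11.67, 10.83 and 10.90 on the 3 chow arrays. It read 10.67, 10.28 and 8.96 in HDAC6 knockout livers, 9.91, 11.04 and 10.05 in HDAC9 knockout livers and 10.28, 10.30 and 10.41 in high-fat livers. All arrays of the HDAC6 knockout and high-fat groups lay below all chow arrays, and HDAC9 knockout replicate 2 lay among the chow values. C8b read 10.42, 9.57 and 9.64 on the chow arrays. It read 9.16, 9.03 and 8.35 in HDAC6 knockout livers, 8.57, 9.73 and 8.94 in HDAC9 knockout livers and 9.01, 8.82 and 8.92 in high-fat livers. The order was the same as for C8a: the chow arrays were high, HDAC9 knockout replicate 2 overlapped them, and HDAC6 knockout replicate 3 was lowest of all.

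Against chow, C8a had a log2 difference of -1.16 (SE 0.368, adjusted p = 0.727) in HDAC6 knockout livers, with a 95% interval from -1.95 to -0.38. In the HDAC9 knockout and high-fat groups it had -0.80 (SE 0.368 in both), with adjusted p of 0.8 and 0.583. C8b had -1.03 (SE 0.279, adjusted p = 0.585) in HDAC6 knockout livers, -0.80 (adjusted p = 0.668) in HDAC9 knockout livers and -0.96 (adjusted p = 0.268) in high-fat livers. These 3 comparisons share the chow arrays, so the values are not independent of each other. Chow replicate 1 was the highest array for both genes. Without it, C8a had -0.90 in HDAC6 knockout livers and -0.53 in both other groups. C8b then had -0.76 in HDAC6 knockout, -0.52 in HDAC9 knockout and -0.69 in high-fat livers. Without HDAC6 knockout replicate 3, the lowest array, the HDAC6 knockout differences were -0.66 for C8a and -0.78 for C8b. Without HDAC9 knockout replicate 1 the C8b difference of that group was -0.54, and without its replicate 2 the differences were -1.15 for C8a and -1.12 for C8b. Between the non-chow groups the values lay closer: C8b differed by 0.23 (SE 0.279) between the HDAC9 and HDAC6 knockout groups.

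C8g, which encodes the gamma chain, did not have this order. Its group means were 12.32 in HDAC6 knockout livers, 12.22 in HDAC9 knockout livers, 12.38 in high-fat livers and 12.23 in chow livers, and its 12 values spanned 0.28. Hc, which encodes C5, read 11.70, 12.19 and 12.22 in high-fat livers and 12.25, 12.57 and 12.25 in HDAC9 knockout livers, a difference of -0.32 (SE 0.125, adjusted p = 0.48) for which high-fat replicate 1 was the lowest and HDAC9 knockout replicate 2 the highest of the 12 arrays. The Hc difference was -0.15 without the first, -0.21 without the second and -0.04 without both. C9, which polymerises into the pore, had means of 11.68 in chow and 11.64 in high-fat livers, and 11.33 and 11.37 in the HDAC6 and HDAC9 knockout groups. Its HDAC9 knockout values of 10.89, 11.95 and 11.26 spanned the whole range of the 12 arrays. C6 varied most within chow livers, at 8.14, 7.41 and 6.93, while its group means ran from 7.41 to 7.55.

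**Figure D2:**
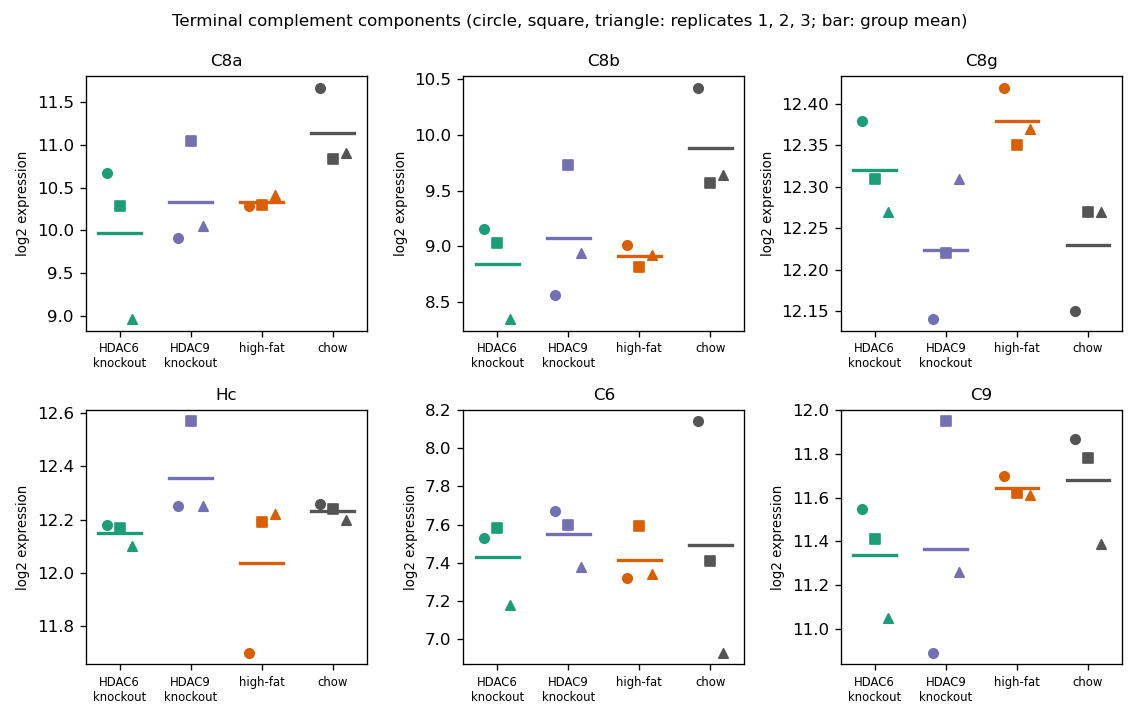
Log2 expression of 6 terminal complement genes by group, with circle, square and triangle for replicates 1, 2 and 3 and a bar for the group mean. For C8a and C8b the chow mean (11.13 and 9.88) lies above the other 3 means, and for C8g the 4 means lie between 12.22 and 12.38.

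C8a and C8b varied together from array to array. Over the 12 arrays their values correlated at r = 0.94 (permutation p = 3e-05, adjusted over 10 pairs p = 0.00015) with Spearman's rho = 0.89 (permutation p = 0.00025, adjusted p = 0.0018). Without the 2 arrays farthest from the median of C8a, r was 0.94, and for deviations from the group means it was 0.93. The pair was 1 of 10 pairs of members lying within 100000 bases of each other in RefSeq's mouse annotation (GRCm38.p6). Over all 820 pairs of members the median r was 0.20, and all these pairs share the same 12 arrays. It was 0.19 within the complement list and 0.35 within the clotting list. For deviations from the group means the medians were 0.29 over all pairs, 0.28 for complement and 0.44 for clotting.

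The sequences upstream of C8a and C8b are shown because these neighbours had the widest swings and moved together. They are given by RefSeq for GRCm38.p6, 5′ to 3′ on the gene's own strand, beginning 250 bases before the listed transcription start. C8a is at chr4:104876488-104876648 on the minus strand (printed up to 90 bases before the start, where the annotated gene begins), and C8b is at chr4:104766067-104766316 on the plus strand. Capitals mark matches to the motifs that were searched on both strands.
C8a: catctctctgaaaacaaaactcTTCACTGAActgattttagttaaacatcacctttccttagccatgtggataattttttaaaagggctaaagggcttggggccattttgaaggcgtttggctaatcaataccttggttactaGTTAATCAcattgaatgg
C8b: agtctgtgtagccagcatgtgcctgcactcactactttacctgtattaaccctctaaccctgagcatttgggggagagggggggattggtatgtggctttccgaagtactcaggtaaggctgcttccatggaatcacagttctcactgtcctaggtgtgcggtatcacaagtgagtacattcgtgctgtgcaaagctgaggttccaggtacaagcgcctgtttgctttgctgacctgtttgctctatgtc
In C8a the capitals are a STAT motif, TTCNNNGAA, and an HNF1 core, GTTAATNA. C8b had no match to the motifs in these 250 bases. Of 14 complement members with a promoter sequence, 4 held the HNF1 core (Cfp, Hc, C8a and C4bp), 2 the STAT motif (Masp2 and C8a), 1 the C/EBP motif TTGCNNAA (C9) and 2 the TATA box TATAAA (Hc and Vtn). Of all 32851 promoters, read over the same 250 bases, 2.33% held the core, 7.02% the STAT motif, 9.56% the C/EBP motif and 12.4% the TATA box. A member was counted if any of its listed promoters held the motif, whereas these shares are per promoter, so the 2 are not quite alike. Of 18 clotting members, 2 held the core (F13b and Fga), 4 the STAT motif (F9, Fga, Fgb and Pros1), 6 the C/EBP motif (F11, Klkb1, F9, Fga, Fgb and Ahsg) and 1 the TATA box (Klkb1). The full HNF1 motif and the HNF4 motif CAAAGTCCA were found in 0 members and in 0.00913% and 0.384% of all promoters. A match is a description of the letters and does not show binding.

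C1q, the recognition protein of the classical pathway, is built of A, B and C chains encoded by C1qa, C1qb and C1qc, which lie next to each other. All 3 chains had their lowest value on chow replicate 3 and their highest on high-fat replicate 1. C1qa read 9.66, 9.27 and 9.26 in chow livers, 9.62, 9.72 and 9.62 in HDAC6 knockout livers, 9.77, 9.86 and 9.62 in HDAC9 knockout livers and 9.93, 9.74 and 9.57 in high-fat livers. Chow replicate 1 overlapped every other group. C1qb read 9.57, 9.54 and 9.28 in chow and 10.10, 9.80 and 9.67 in high-fat livers, which did not overlap. Its HDAC6 knockout values, 9.64, 9.71 and 9.62, also lay above all chow values, and its HDAC9 knockout values, 9.80, 9.88 and 9.53, overlapped them. C1qc had means of 9.25 in chow livers and 9.41 to 9.46 in the other groups.

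Against chow, C1qa had log2 differences of 0.26 (SE 0.123, adjusted p = 0.865) in HDAC6 knockout livers, 0.36 (adjusted p = 0.664) in HDAC9 knockout livers and 0.35 (adjusted p = 0.387) in high-fat livers. C1qb had 0.19, 0.27 and 0.39 (SE 0.126), with adjusted p from 0.337 to 0.89. C1qb has another 2 probe sets, which had values of -0.08 and -0.11 in HDAC6 knockout livers, 0.12 and 0.10 in HDAC9 knockout livers and 0.18 and 0.17 in high-fat livers. The probe sets thus disagreed in direction for the HDAC6 knockout group. Over the 12 arrays C1qa and C1qb correlated at r = 0.88 (permutation p = 3e-05, adjusted p = 0.00015), with rho = 0.87 (permutation p = 0.00037, adjusted p = 0.0018) and r = 0.92 without the 2 farthest arrays. C1qb and C1qc also gave r = 0.88 (permutation p = 0.00032, adjusted p = 0.00064), with rho = 0.74 (permutation p = 0.0078, adjusted p = 0.016) and r = 0.67 without the 2 farthest. C1qa and C1qc gave r = 0.69 (permutation p = 0.015, adjusted p = 0.019), rho = 0.66 (permutation p = 0.021, adjusted p = 0.035) and r = 0.89 without the 2 farthest. For deviations from the group means r was 0.81 for C1qa and C1qb, 0.93 for C1qb and C1qc and 0.57 for C1qa and C1qc.

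Properdin, encoded by Cfp, stabilises the alternative pathway convertase. Cfp read 8.51, 8.22 and 8.00 in high-fat livers and 7.91, 7.88 and 7.67 in chow livers, with no overlap. The log2 difference was 0.42 (SE 0.145, adjusted p = 0.379), and it was 0.14 and 0.13 in the HDAC6 and HDAC9 knockout groups. Without high-fat replicate 1, the highest array for C1qa, C1qb and Cfp, the high-fat differences were 0.26, 0.27 and 0.29. Markers of Kupffer cells and other macrophages were read beside these genes. Of 14 measured markers (15 listed), 13 had a higher mean in high-fat livers than in chow (median 0.334), 14 in HDAC9 knockout livers (median 0.274) and 11 in HDAC6 knockout livers (median 0.229), with 0 of 14 past the threshold in each. Per array, the median of the marker list ran from -0.419 to 0.058 in chow livers, from -0.012 to 0.026 in HDAC6 knockout livers, from -0.106 to 0.130 in HDAC9 knockout livers and from 0.013 to 0.254 in high-fat livers. Clec4f, a defining Kupffer cell marker, read between 9.15 and 10.07. Its means were 9.43 in chow, 9.40 in HDAC6 knockout, 9.64 in HDAC9 knockout and 9.79 in high-fat livers, so it was not higher in the HDAC6 knockout group. The lowest and the highest median of the marker list lay on chow replicate 3 and high-fat replicate 1, as for each C1q chain and Cfp. Of the single markers, 11 of 14 were lowest on chow replicate 3 and 5 of 14 were highest on high-fat replicate 1. The part of macrophage number in the values of the C1q chains and Cfp was not tested.

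**Figure D3:**
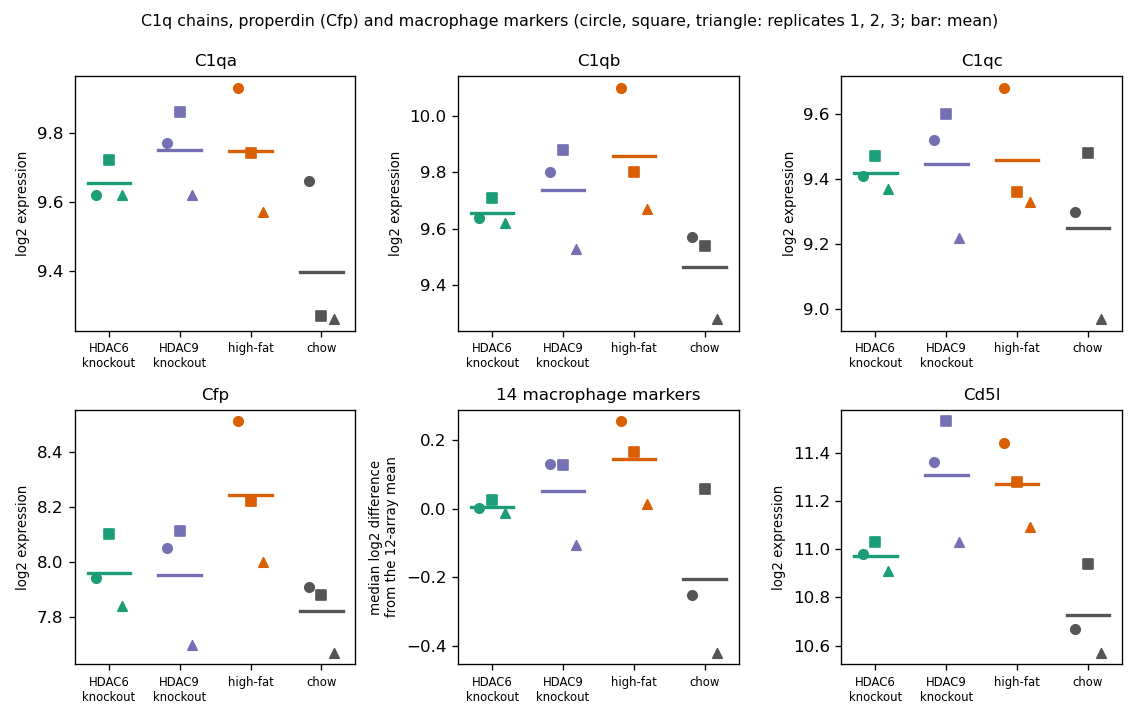
Log2 expression of the 3 C1q chain genes, of Cfp and of the Kupffer cell marker Cd5l by group, and the median of 14 macrophage markers as a log2 difference from the 12-array mean, with circle, square and triangle for replicates 1, 2 and 3 and a bar for the mean. Chow replicate 3 is lowest and high-fat replicate 1 is highest for each C1q chain and for the marker median.

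Upstream sequences of the neighbours C1qb and C1qc are shown for comparison with those of C8a and C8b, read in the same way. C1qb is at chr4:136886201-136886450 and C1qc at chr4:136892937-136893164, both on the minus strand of GRCm38.p6 in RefSeq. The C1qc sequence is printed up to 23 bases before the start, where the annotated gene begins. Capitals mark a match to a motif of the leukocyte factor PU.1, GAGGAAGT, on either strand.
C1qb: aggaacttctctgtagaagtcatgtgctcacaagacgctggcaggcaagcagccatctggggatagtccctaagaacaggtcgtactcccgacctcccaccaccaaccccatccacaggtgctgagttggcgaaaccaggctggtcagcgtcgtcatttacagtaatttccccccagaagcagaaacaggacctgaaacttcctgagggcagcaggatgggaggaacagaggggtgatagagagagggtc
C1qc: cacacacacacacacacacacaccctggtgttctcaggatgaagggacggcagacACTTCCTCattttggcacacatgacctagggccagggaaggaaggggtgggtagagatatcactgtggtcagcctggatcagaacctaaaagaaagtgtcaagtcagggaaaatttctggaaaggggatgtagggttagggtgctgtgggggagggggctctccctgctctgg
C1qc was the only complement member of 14 with this motif, which 2.44% of all promoters held, and 0 of 18 clotting members had it.

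The lectin pathway is started by the mannose-binding lectins Mbl1 and Mbl2 with their proteases Masp1 and Masp2. Mbl1 read 11.24, 11.14 and 10.98 in chow livers and 10.86, 10.89 and 10.68 in HDAC6 knockout livers, with no overlap and a log2 difference of -0.31 (SE 0.107, adjusted p = 0.739). Its values in the HDAC9 knockout and high-fat groups overlapped both, with means of 10.91 and 10.90. Mbl2 had means between 12.23 and 12.43. Masp1 read 9.21 on high-fat replicate 1 and between 9.77 and 10.06 on the other 11 arrays. Its probe sets disagreed in direction for the high-fat diet, with -0.23 for the one used and values from -0.19 to 0.20 for the others. Masp2 kept within 0.25 over the 12 arrays. Its 2 probe sets disagreed in direction for the HDAC6 knockout group (-0.09 for the one used and 0.13).

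C2 and factor B (Cfb), neighbouring genes, supply the protease of the classical and the alternative convertase. C2 read 8.50, 9.01 and 9.11 in high-fat livers and 9.27, 9.55 and 9.10 in HDAC9 knockout livers, a difference of -0.43 (SE 0.154, adjusted p = 0.388). The lowest of these was high-fat replicate 1 and the highest HDAC9 knockout replicate 2, and without both the difference was -0.13. Cfb varied within chow livers, at 11.46, 10.78 and 11.43, more than between the group means, which ran from 11.09 to 11.40. C2 and Cfb gave r = 0.72 over the arrays (permutation p = 0.0052, adjusted p = 0.0087) and rho = 0.59 (permutation p = 0.05, adjusted p = 0.071). Without the 2 farthest arrays r was 0.44, and for deviations from the group means it was 0.6. Leaving out the farthest arrays narrows the range and can itself lower r, so whether the relation rests on them cannot be told. Of the regulators, factor I (Cfi), C4bp, C1 inhibitor (Serping1) and vitronectin (Vtn) spanned 0.36 to 0.45 over the 12 arrays. C4bp, which binds C4b, had the largest difference of the 4 from chow, -0.20 (SE 0.1, adjusted p = 0.826) in HDAC9 knockout livers. The Vtn probe set used had differences from chow of -0.07 to 0.00. Its other one had 0.12 in HDAC6 knockout, 0.19 in HDAC9 knockout and 0.12 in high-fat livers.

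**Figure D4:**
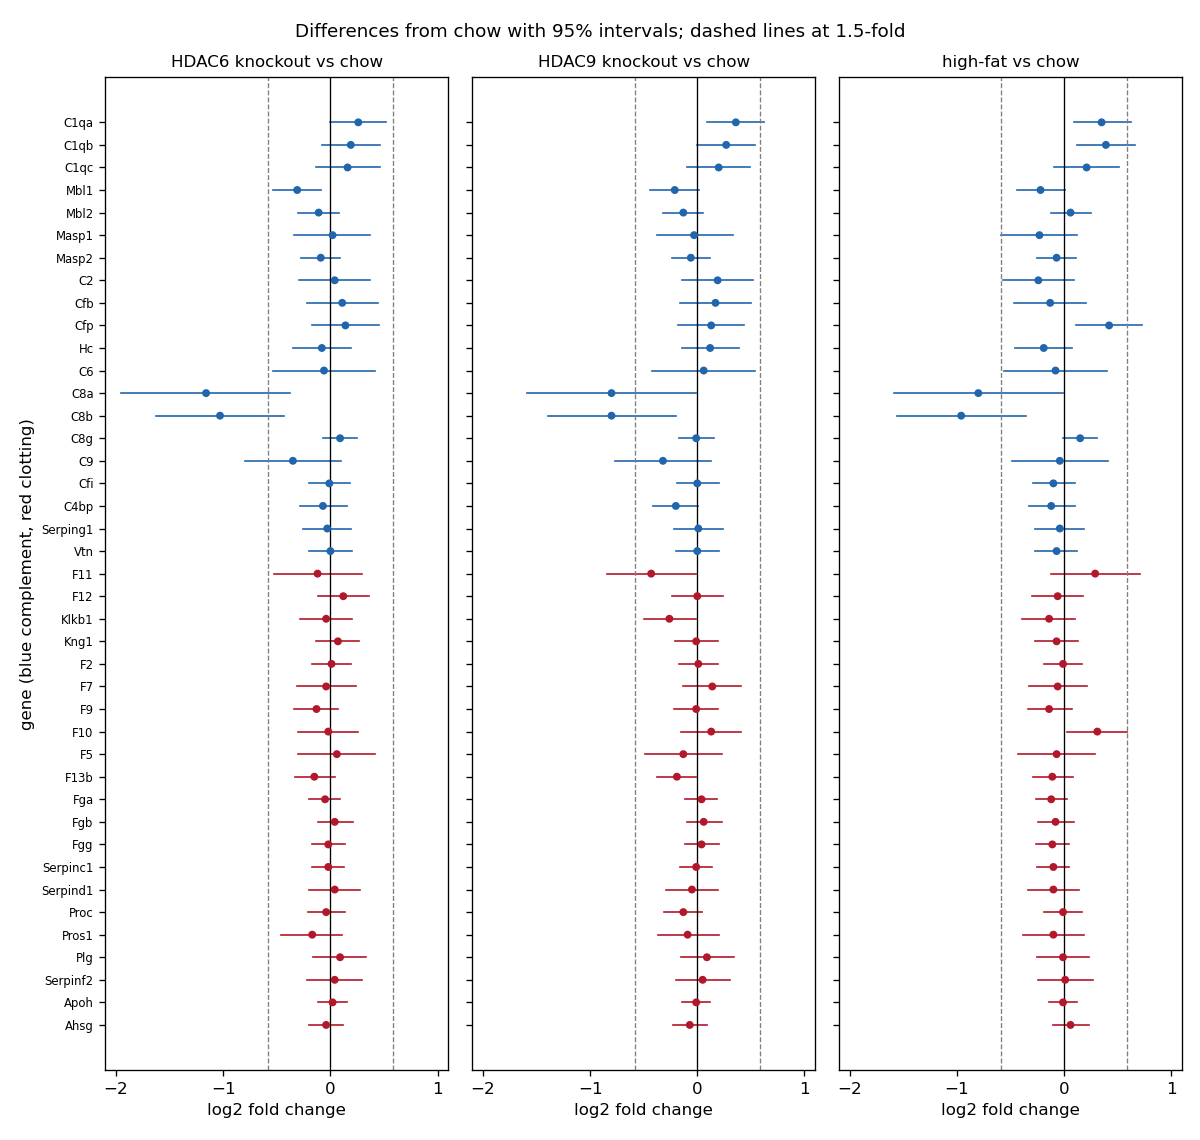
Log2 fold changes (dots) against chow with 95% intervals (lines) for the 41 members in 3 panels, one per group, with complement in blue, clotting in red and dashed lines at a 1.5-fold change. Of the clotting members, 21, 20 and 19 of 21 have intervals within the dashed lines, in the order of the panels.

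The spread of values was smaller for the clotting members than for the complement members. The median SD within groups was 0.115 for clotting members and 0.17 for complement members, beside 0.152 for all genes, and the median span over the 12 arrays was 0.40 and 0.71. The lists also differ in level, with member means from 7.77 to 13.52 for clotting and from 7.47 to 12.87 for complement. The part of level in this contrast was not tested. Against chow, 38 of 41 members had a 95% interval within a 1.5-fold change (0.58 on the log2 scale) in HDAC6 knockout livers, 36 of 41 in HDAC9 knockout livers and 33 of 41 in high-fat livers. The intervals of 7.32%, 12.2% and 19.5% of members reached past that bound, against 9.69%, 10% and 12.1% of all genes. In HDAC6 knockout livers the 3 that did were C8a, C8b and C9. In HDAC9 knockout livers the 5 were C1qa, C8a, C8b, C9 and F11, and in high-fat livers the 8 were C1qa, C1qb, Masp1, Cfp, C8a, C8b, F11 and F10.

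The contact system starts clotting on charged surfaces through factors XI and XII (F11 and F12), plasma kallikrein (Klkb1) and kininogen (Kng1). F11 read 8.34, 7.68 and 7.76 in HDAC9 knockout livers and 8.68, 8.65 and 8.61 in high-fat livers, which did not overlap. The difference between these groups was 0.72 (SE 0.193, adjusted p = 0.163), 1.65-fold, with a 95% interval from 0.31 to 1.14. It was 0.93 without HDAC9 knockout replicate 1, the highest of that group, and then passed the threshold (adjusted p = 0.0345). HDAC9 knockout replicate 2, the array with the most pancreas transcripts, was the lowest of all arrays for F11. Without it the difference was 0.60 (limma, adjusted p = 0.434), and without HDAC9 knockout replicate 3 it was 0.64 (limma, adjusted p = 0.466). Chow values of F11 were 8.78, 7.90 and 8.38 and overlapped both groups, and HDAC6 knockout values of 8.28, 8.23 and 8.19 lay below all high-fat values and within the HDAC9 knockout range. Against chow, F11 had -0.43 (SE 0.193, adjusted p = 0.792) in HDAC9 knockout livers and 0.29 in high-fat livers. The HDAC9 knockout difference from chow was -0.21 without chow replicate 1, -0.65 without chow replicate 2 and -0.64 without HDAC9 knockout replicate 1. Klkb1, the neighbour of F11, read 10.93, 10.84 and 10.66 in HDAC9 knockout livers and 11.04, 11.09 and 11.07 in chow livers, with no overlap (log2 difference -0.26, SE 0.113, adjusted p = 0.788). Over the arrays F11 and Klkb1 gave r = 0.27 (permutation p = 0.4, adjusted p = 0.4), rho = 0.10 (permutation p = 0.75, adjusted p = 0.75) and r = -0.29 without the 2 farthest arrays. For deviations from the group means r was 0.13. F12 had group means from 11.08 to 11.26 and Kng1 from 12.67 to 12.81, with -0.07 against chow in high-fat livers for the Kng1 probe set used and -0.25 for its other one.

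Prothrombin (F2) and factors VII, IX and X (F7, F9 and F10) are proteases that need vitamin K for their maturation. F2 had group means of 12.74 to 12.76. F10 read 11.96, 12.05 and 12.01 in high-fat livers and 11.73, 11.65 and 11.72 in chow livers, with no overlap and a log2 difference of 0.31 (SE 0.132, adjusted p = 0.53). Its other 2 probe sets had 0.05 and -0.04, so the probe sets disagreed and the mean of the 3 gave 0.11. HDAC6 knockout values of F10 were 11.50, 11.49 and 12.05, with replicate 3 as high as the high-fat arrays. F7, next to F10, had means from 10.57 to 10.77, and F9 from 10.90 to 11.04. F10 and F7 gave r = 0.46 (permutation p = 0.14, adjusted p = 0.15), rho = 0.48 (permutation p = 0.11, adjusted p = 0.14) and r = 0.31 without the 2 farthest arrays. For deviations from the group means r was higher, 0.73, beside a median of 0.44 over all pairs of clotting members.

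Factor V (F5) is the cofactor that speeds thrombin formation, and F13b encodes the carrier subunit of factor XIII, which crosslinks fibrin. F5 read 10.85 on high-fat replicate 1 and 11.58 and 11.52 on the other high-fat arrays, so its high-fat SD of 0.405 was larger than any difference between groups. Its probe sets disagreed in direction for the HDAC6 knockout group against chow (0.06 for the one used and -0.10). F13b read 11.22, 11.17 and 10.92 in HDAC9 knockout livers and 11.25, 11.32 and 11.33 in chow livers, a difference of -0.19 (SE 0.0864, adjusted p = 0.788). The chow values lay above the 9 values of the other groups, which were all at or below 11.22.

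Fibrinogen has alpha, beta and gamma chains encoded by the clustered genes Fga, Fgb and Fgg, and all 3 were highest on HDAC9 knockout replicate 2. Fga read 13.26, 13.40 and 13.23 in HDAC9 knockout livers, 13.16, 13.13 and 13.14 in high-fat livers, 13.24, 13.18 and 13.21 in HDAC6 knockout livers and 13.24, 13.29 and 13.26 in chow livers. The high-fat arrays lay below all others. The differences were small: Fga had -0.12 (SE 0.067, adjusted p = 0.685) against chow and -0.15 (adjusted p = 0.574) against the HDAC9 knockout group. Fgg had -0.11 and -0.15 in the same comparisons and Fgb -0.08 and -0.14, and they did not pass the threshold. Over the arrays Fgb and Fgg correlated at r = 0.93 (permutation p = 8e-05, adjusted p = 0.00027), with rho = 0.78 (permutation p = 0.0045, adjusted p = 0.011) and r = 0.72 without the 2 farthest. Fga and Fgg gave r = 0.92 (permutation p = 0.00022, adjusted p = 0.00055), rho = 0.85 (permutation p = 0.00099, adjusted p = 0.0033) and r = 0.79 without the 2 farthest. For Fga and Fgb r was 0.74 (permutation p = 0.011, adjusted p = 0.016), rho 0.43 (permutation p = 0.17, adjusted p = 0.19) and r without the 2 farthest 0.34. Whether that relation rests on those arrays cannot be told, as leaving them out narrows the range. For deviations from the group means r was 0.95 for Fgb and Fgg, 0.89 for Fga and Fgg and 0.73 for Fga and Fgb. The fibrinogen chain values lie near 14.25, the highest on any array, and whether the scale compresses differences there was not tested.

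The plasma inhibitors antithrombin (Serpinc1), heparin cofactor II (Serpind1), protein C (Proc) and its cofactor protein S (Pros1) hold clotting back. Serpinc1 had means between 13.33 and 13.43. Serpind1 read 11.13 on high-fat replicate 1 and between 11.37 and 11.62 on the others. Proc read between 11.64 and 11.97, and Pros1 between 7.53 and 7.99. In fibrinolysis, plasminogen (Plg) read 13.04 on high-fat replicate 1 and 13.07 on chow replicate 2, and 13.27 to 13.47 elsewhere. Serpinf2, the plasmin inhibitor, had means from 11.55 to 11.60. Apoh, a phospholipid-binding glycoprotein, kept within 0.09 on the 12 arrays, the narrowest span of the 41 members, and Ahsg, fetuin-A, within 0.24.

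**Figure D5:**
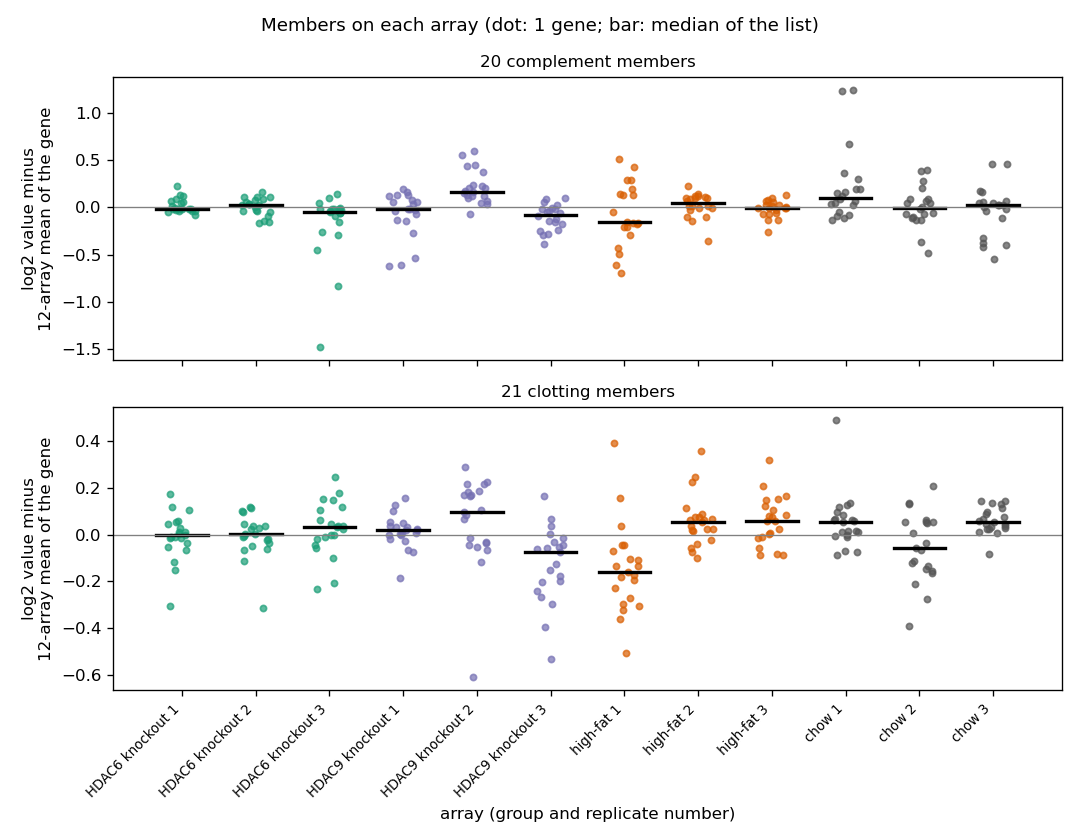
Each dot is 1 member on 1 array, as the log2 value minus the mean of the gene over 12 arrays, with complement above, clotting below and a bar for the list median. High-fat replicate 1 has the lowest medians, -0.159 and -0.161, and HDAC9 knockout replicate 2 the highest, 0.167 and 0.099.

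Single arrays were high or low for much of both lists. High-fat replicate 1 was below the 12-array mean for 18 of 21 clotting members and 12 of 20 complement members, while high-fat replicates 2 and 3 had clotting medians of 0.051 and 0.062. The 8 measured hepatocyte markers had a median of -0.025 on high-fat replicate 1. Of these, Apob (11.61) and Cps1 (13.06) had their lowest value of the 12 arrays there, while Apoa1 (13.99) was among its highest. Most of these markers read near 14.25, the highest value on any array, where compression of differences was not tested. HDAC9 knockout replicate 2 was highest of the 12 arrays for 14 of 41 members (34.1%), against 6.9% of all genes, and chow replicate 1 for 8 of 41 (19.5%), against 6.87%.

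Against chow, the median log2 fold change of the 20 complement members was -0.023 in HDAC6 knockout livers, 0.004 in HDAC9 knockout livers and -0.076 in high-fat livers. That of the 21 clotting members was -0.021, -0.012 and -0.071, beside -0.014, -0.014 and -0.010 for all genes. In high-fat livers 17 of 21 clotting members and 14 of 20 complement members had a lower mean than chow, while 47.2% of all genes had a higher one. Without high-fat replicate 1 these counts were 9 of 21 and 11 of 20, and the clotting median was 0.043. Without HDAC9 knockout replicate 2, the HDAC9 knockout medians against chow were -0.055 for complement and -0.045 for clotting. Groups did not overlap for 8 of 41 members in HDAC6 knockout livers against chow (19.5%, all genes 10.1%), 3 of 41 in HDAC9 knockout livers (7.32%, all genes 12.6%) and 10 of 41 in high-fat livers (24.4%, all genes 14.7%).

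Between the 2 knockout groups, 1 of 41 members did not overlap (2.44%, all genes 8.46%) and 37 of 41 had intervals within a 1.5-fold change, with 9.76% reaching past it (all genes 7.39%). The list medians were 0.039 for complement and 0.002 for clotting. Without HDAC9 knockout replicate 2 both were -0.035, with 17 of 21 clotting members and 11 of 20 complement members lower in HDAC9 knockout livers. The largest difference was in C8a, 0.36 (SE 0.368, adjusted p = 1). High-fat values did not overlap with HDAC6 knockout values for 10 of 41 members (24.4%, all genes 13.1%) and with HDAC9 knockout values for 7 of 41 (17.1%, all genes 13.8%). In these comparisons 19.5% and 22% of the members had an interval reaching past a 1.5-fold change (all genes 10.7% and 11.3%).

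The wider pathway was read through further lists. Of 32 further complement genes listed, 17 were measured, and 0 of 17 passed the threshold in any comparison. In high-fat livers Fcna, a ficolin of the lectin pathway, had 0.44 (SE 0.145, adjusted p = 0.354) and Itgb2, the beta chain of leukocyte complement receptors, 0.40 (SE 0.133, adjusted p = 0.354). Itgb2 also had 0.43 in HDAC6 knockout and 0.36 in HDAC9 knockout livers. Of 35 further clotting and fibrinolysis genes listed, 29 were measured, and 0 of 29 passed. The receptor for thrombin, F2r, had -0.33 (SE 0.102, adjusted p = 0.583) in HDAC9 knockout livers against chow. Ggcx, the carboxylase that uses vitamin K, had -0.36 (SE 0.172, adjusted p = 0.594) in high-fat livers, and Vwf, von Willebrand factor, had -0.52 (SE 0.151, adjusted p = 0.231) in the high-fat against the HDAC9 knockout group. Of 7 measured platelet and megakaryocyte markers (8 listed), Ppbp passed in that same comparison, with -0.93 (SE 0.166, limma adjusted p = 0.0288). Its values were low, 4.13, 4.01 and 3.72 in high-fat livers and 4.86, 5.04 and 4.76 in HDAC9 knockout livers.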

How the data were processed

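Expression was measured on 12 arrays of mouse whole liver, 3 per group. The authors deposited log2 values, 1 per probe set and array. The method was RMA per the submitters' processing notes, and its software and chip definition are not given in the sources used here. Of 22626 probe sets, 20380 had 1 gene symbol, 691 several and 1555 none. Those with 1 symbol were used, each gene by its probe set of highest mean, which gave 12393 genes, and no further normalization or filter was applied. Of the members, 7 had several probe sets.

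The 4 groups were fitted together in limma 3.58.1 (R 4.3.3) with a mean-variance trend, giving 6 pairwise comparisons and a test for any difference. Tests were two-sided, and p-values were adjusted by Benjamini-Hochberg over all genes. Degrees of freedom after moderation were 14.32, and the median SE was 0.124. The number of arrays limits the precision. With 3 arrays against 3, an exact permutation test cannot give a p under 0.1. The procedure was tested on simulated data.

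Neighbouring members were correlated over the 12 arrays with 100000 permutations, and p-values were adjusted over the 10 pairs. Promoter sequences, from RefSeq (GRCm38.p6), were found for 32 of the 41 members. They were searched on both strands, in the 250 bases before the start, for the full HNF1 motif and its core (GTTAATNA), HNF4 (CAAAGTCCA), C/EBP (TTGCNNAA), STAT (TTCNNNGAA), PU.1 (GAGGAAGT) and a TATA box (TATAAA). A full HNF1 match also holds the core.

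The members and all gene lists were chosen with earlier results of these data known. All members could be named. Of other lists, genes past the threshold or among the 3 of smallest p in a comparison could be named, with markers that define a cell type. Alternatives were other variance priors, a fit of only the groups compared, the mean of all probe sets, quantile normalization, a filter at the 25th percentile of mean expression, median centring, an adjusted p under 0.01, the replicate number as a block, lists without Vtn, Ahsg and Apoh, and each array left out in turn. Leaving out HDAC9 knockout replicate 2 and high-fat replicate 1 together was added after seeing the data. Python 3.11.15 with pandas 2.3.3 was used for pairs and promoters, and matplotlib 3.10.9 for plots.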

Additional observations from a re-analysis of the deposited data

How the results depend on the processing

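The count of members past the threshold was 0 for both lists in all 6 comparisons and in the test for any difference under each alternative, with 1 exception. Without HDAC9 knockout replicate 1, 1 clotting member passed in the high-fat against the HDAC9 knockout group: F11, with a log2 fold change of 0.93 (limma, adjusted p = 0.0345). Leaving out single arrays thus gave 0 to 1 clotting members there, and over all alternatives the F11 difference ran from 0.58 to 0.93 with adjusted p from 0.0345 to 0.683. No sign changed among the 23 member differences followed by name. These were the ones with an unadjusted limma p under 0.05 in the fit of all 12 arrays, so stable signs there add no separate support. Single probe sets were not followed in this way. For F10 in high-fat livers against chow, 1 of the probe sets not used had -0.04. The median of the clotting list in the high-fat group changed sign without high-fat replicate 1, to 0.043 against chow and 0.068 against the HDAC9 knockout group (0.098 without HDAC9 knockout replicate 2 as well). The complement median of the high-fat against the HDAC9 knockout group, -0.012, was -0.103 without HDAC9 knockout replicate 3, 0.055 without HDAC9 knockout replicate 2 and 0.060 without that array and high-fat replicate 1. With the replicate number as a block, 0 members passed in every comparison. Deviations of same-numbered arrays correlated between -0.152 and 0.148, so the numbers were not taken as pairs. With 3 arrays per group and whole liver RNA, differences well under 1.5-fold were not detectable for the more variable members. Larger ones could be missed as well. In HDAC6 knockout livers against chow, log2 differences of -1.16 for C8a and -1.03 for C8b did not pass.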

Other observations

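Among 19 measured regulators of liver plasma protein genes (22 listed), Cebpb, a C/EBP factor of the acute phase response, was the one called. Cebpb read 10.89, 10.99 and 11.09 in high-fat livers and between 10.10 and 10.61 on the other 9 arrays. It was higher by 0.66 than in the HDAC6 knockout group (SE 0.109, limma adjusted p = 0.0245) and by 0.60 than in the HDAC9 knockout group (adjusted p = 0.0309), while the difference from chow, 0.49, did not pass (adjusted p = 0.109). Foxa2, a hepatocyte forkhead factor, had -0.65 in the high-fat group against chow (SE 0.137, adjusted p = 0.0807), with no overlap.

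Of 19 measured acute phase genes (20 listed), Orm2, an orosomucoid, was called. Orm2 read 8.37, 9.49 and 8.30 in HDAC9 knockout livers, 8.17, 7.51 and 7.65 in HDAC6 knockout livers, 7.11, 7.11 and 7.28 in chow livers and 6.33, 6.61 and 6.69 in high-fat livers. It was higher in the HDAC9 knockout group than in chow by 1.55 (SE 0.252, limma adjusted p = 0.0454), and lower in the high-fat than in the HDAC9 knockout group, with a log2 fold change of -2.18 (adjusted p = 0.0016). The HDAC6 knockout arrays also lay above all chow arrays, with a difference of 0.61 that did not pass (adjusted p = 0.833). The array with the most pancreas transcripts, HDAC9 knockout replicate 2, was also the highest of the 12 for 12 of the 19 acute phase genes. The other 2 HDAC9 knockout arrays also read above all chow arrays for Orm2.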
